A study of Mus musculus with 204 samples.

Results

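Neurons rich in Nefm, the transcript of the medium neurofilament chain, were compared with neurons poor in it among single cells picked from the mouse distal colon. A cell counted as a neuron where at least 3 of 5 neuronal transcripts (Elavl3, Elavl4, Snap25, Stmn2 and Syt1) reached 2 on the deposited log2(RPKM + 1) scale, and 149 of 204 cells did. RPKM counts reads per kilobase of transcript, scaled to the total reads of the cell, and 2 on this scale stands for 3 RPKM, and a transcript at or above it is called detected. Neurons with Nefm at 7 or more are called high-Nefm neurons and those below 5 low-Nefm neurons. The comparison holds 68 high and 53 low neurons, and the 28 neurons between the thresholds are called the middle group. Plate 1 gave 30 high and 18 low neurons, plate 2 gave 12 and 14, and plate 3 gave 26 and 21. Nefm made the groups, so its own level is a description: the 3 neurons just under 7 had 6.83, 6.87 and 6.92 and the 3 just over it 7.04, 7.11 and 7.12. Around the other threshold the values were 4.80, 4.92 and 4.95 below 5, and 5.10, 5.31 and 5.41 above.

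Every cell came from VGLUT2-tdTomato mice, whose red reporter is tied to Slc17a6, the gene of the vesicular glutamate transporter VGLUT2. The outer muscle with its myenteric plexus was broken into cells, kept in culture overnight, and red cells were then pipetted one at a time. The high, middle and low neurons share this strain, tissue and culture step, and the labels give no treatment, age, sex, animal or culture for any of them. Cells are therefore not replicates: each plate was treated as 1 sample of each group, no test was made, and SDs and intervals cover the cells of these plates only.

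Neurofilaments are the intermediate filaments of neurons. Light, medium and heavy chains (Nefl, Nefm and Nefh) assemble into one polymer that fills large axons and sets their calibre, and peripheral neurons add peripherin (Prph). In the gut wall, neuron classes are told apart by what they release: acetylcholine (made by the enzyme of Chat), nitric oxide (Nos1), tachykinins such as substance P (Tac1), enkephalins (Penk) and, in some, glutamate.

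Pooled over plates, the groups were close in depth, with a median of 4602844 reads in high and 4204552 in low neurons. All cells ranged from 453108 to 14310837. On plates 1, 2 and 3 the medians were 3991828, 4420995 and 5741275 in high and 3145781, 5094383 and 5075885 in low neurons. Pooled medians of genes above 0 were 13065.5 and 12495. By plate they were 12557, 14300.5 and 13462.5 in high and 12194, 13140 and 12036 in low neurons. The pooled median mitochondrial share of reads was 2.95% in high and 3.87% in low neurons. The extremes differed more: the fewest genes above 0 were 5121 in high and 3883 in low neurons, and the highest mitochondrial shares 26.9% and 49.3%. All 5 neuronal transcripts were detected in 66 of 68 high and 43 of 53 low neurons. Over the 14678 genes compared (detected in at least 10% of the compared neurons), the median difference in mean log2(RPKM + 1), high minus low, was 0.19, 0.03 and 0.36 on plates 1, 2 and 3. Plates 2 and 3 use 49 of the same well numbers. In the deposited column names these 2 plates share the suffix P2, and plate 1 has P1, so the 3 plates may not be equally separate. The 5 transcripts that define a neuron are values the rule used and are given as a description. Snap25, a vesicle fusion protein, had a median of 7.21 in high and 7.30 in low neurons, and Stmn2, a microtubule regulator of axons, 7.50 and 7.30. Syt1, the calcium sensor of vesicle release, was higher in the means of high neurons by 1.03, 0.56 and 1.16 and detected in 67 of 68 high and 46 of 53 low neurons, and Elavl4, an RNA-binding protein, by 1.01, 0.26 and 0.94. Elavl3, of the same family, differed by 0.71, -0.60 and 0.76.

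A gene is called higher or lower below where the means of the groups differed by at least 1 (2-fold) in the same direction on all 3 plates. This held for 288 genes that were higher in high-Nefm neurons (1.96% of those compared) and for 46 that were lower (0.313%). The split between the directions depends on the scaling. With each cell centred on its pan-neuronal transcripts 0.525% of the 14678 genes were higher and 3.62% lower, and with each cell centred on frequently detected genes 0.981% and 0.879%. The pan-neuronal list itself differed, with a median of 0.69 against 0.20 over all genes. Of its 16 genes 3 were higher (18.8%, against 1.96% of all genes) and none lower, so centring on it also subtracts a difference between the groups. The ratio of mean RPKM gave 1.32% and 0.961%, and it was less than 0.5 of the main difference for the named called genes Cartpt, Hspb1, Etv1, Pcp4l1, Ngfr and Penk. The 12 genes named in each direction by the size of their smallest plate difference kept their sign in each of these, and all but 1 are shown in the plot of differences by plate.

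**Figure D1:**
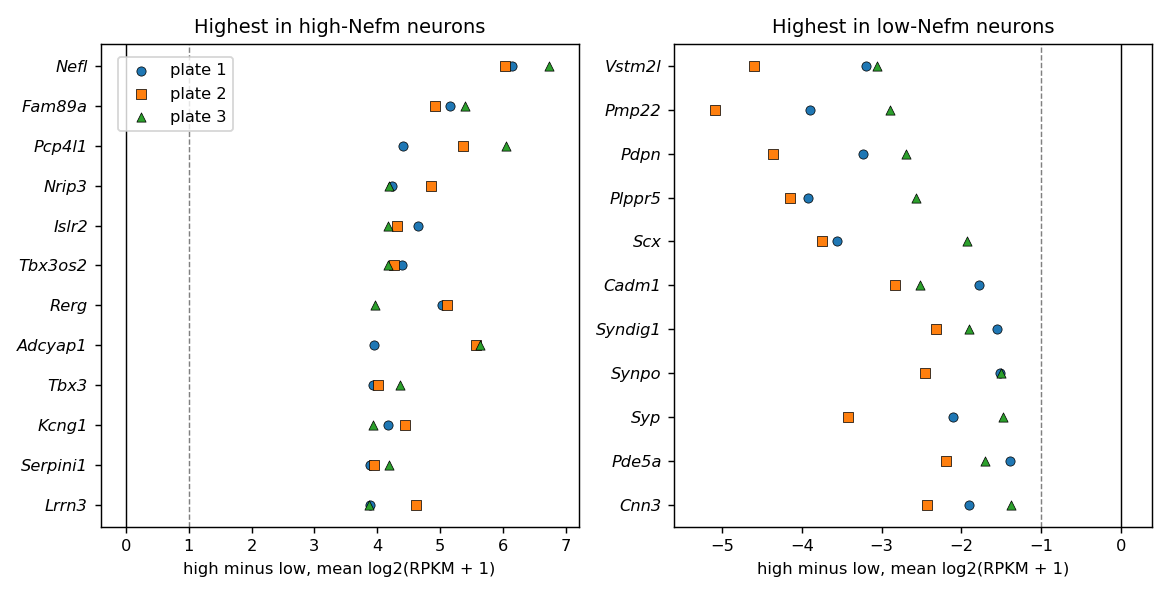
Difference in mean log2(RPKM + 1), high-Nefm minus low-Nefm neurons, for the 12 named higher genes and 11 of the 12 named lower genes (circle plate 1, square plate 2, triangle plate 3; dashed line: a difference of 1 or -1). The points of the left panel lie at 3.87 or more, and those of the right panel between -1.37 (Cnn3) and -5.09 (Pmp22).

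The light neurofilament chain showed the largest difference, and its annotated exons overlap with those of Nefm. Nefl (chr14:68083863-68089095 in mm10, GENCODE M21) ranged from 7.17 through a median of 9.17 to 10.78 in high neurons and from 0.16 through 2.36 to 9.23 in low neurons. The means differed by 6.14, 6.03 and 6.73 on plates 1, 2 and 3, and 1 of 53 low neurons reached the range of the high neurons. The annotated span of Nefm, on the opposite strand (chr14:68082590-68124846), encloses that of Nefl, and an annotated Nefm exon covers 32.8% of the exon bases of Nefl. The strand setting of the counting is not given in the sources used here, so reads of this stretch cannot be told apart, for Nefl or for the gene that made the groups. The heavy chain did not follow: Nefh was detected in 38 of 68 high and 26 of 53 low neurons, with differences of 1.06, 0.01 and -0.26. Peripherin was abundant in both groups, with a median of 10.24 in high and 9.60 in low neurons, and differed by 0.07, 1.72 and 2.54.

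No member of 3 other lists of the axon's framework was called, where the shares over all genes (1.96% higher and 0.313% lower) would give less than 1 gene in each. None of the 22 tubulins and microtubule proteins compared was called in either direction (median difference 0.43 against 0.20 over all genes), and neither was any of the 17 transport motors (0.35) or of the 16 proteins of the initial segment and membrane skeleton (0.02). Among the larger shifts of a constant sign were those of Tubb6, a tubulin (1.86, 0.41 and 1.59), and Dync1i1, a dynein chain (0.11, 1.87 and 2.92). Of the 6 intermediate filament genes, Nefl alone was called.

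**Figure D2:**
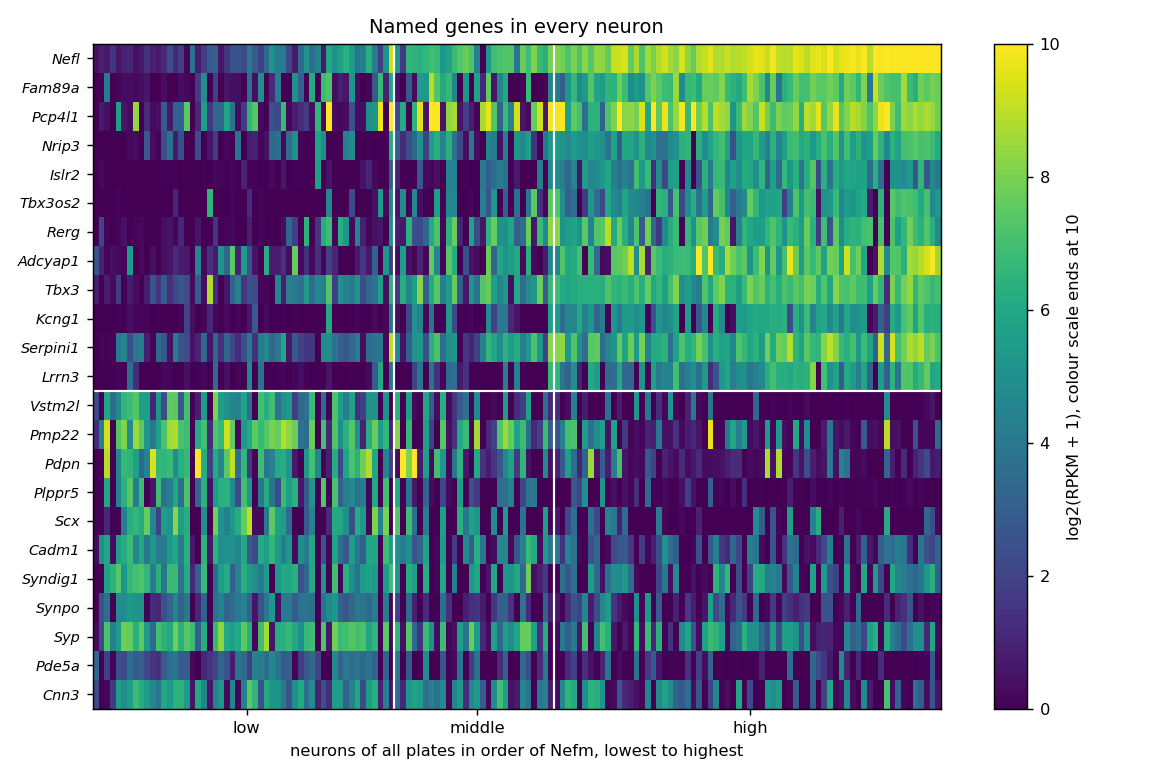
Level of the 12 higher genes (above the white line) and 11 of the 12 lower genes (below it) in all 149 neurons, ordered from the lowest to the highest Nefm, with vertical lines at the thresholds. Colour is log2(RPKM + 1) and saturates at 10; the upper genes were chosen for being higher in the high neurons, which held a median of 4 of the 12 lower genes.

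Of the other 11 named higher genes, several were seldom detected in low neurons, among them Islr2, while Serpini1 was detected in most of them. Islr2, a leucine-rich membrane protein of growing axons (chr9:58196297-58204319), was detected in 63 of 68 high neurons, with a median of 4.96 and a highest value of 7.31. In low neurons it was detected in 2 of 53, with a median of 0.03 and a highest value of 5.67. The groups overlapped at the low end, where 5 high neurons had less than 2, and 1 low neuron lay above the median of the high group. The differences were 4.64, 4.31 and 4.18. Fam89a (chr8:124740257-124751832) was detected in all 68 high neurons, from 2.96 through 7.00 to 9.20, and in 14 of 53 low neurons, with a median of 0.37 and 1 of them above the median of the high group, at 7.23. Its differences were 5.16, 4.91 and 5.39. Pcp4l1 had a median of 8.15 in high and 1.30 in low neurons, but 2 low neurons, up to 11.53, lay above every high neuron. Serpini1, which encodes neuroserpin, an inhibitor of the protease tPA, was detected in all 68 high and in 33 low neurons, with medians of 6.68 and 2.73. Rerg, a Ras-related GTPase, was detected in 62 high and 9 low neurons, and Nrip3 in 67 and 15. Kcng1, a potassium channel subunit that is silent by itself, was detected in 58 high and 3 low neurons, and Lrrn3, a leucine-rich repeat membrane protein, in 60 and 7.

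Transcripts of the Tbx3 locus were high together. Tbx3, a T-box transcription factor (chr5:119670669-119684724), was detected in 67 of 68 high neurons and had a median of 6.77 there, against 29 of 53 and 2.40 in low neurons. Its differences were 3.93, 4.02 and 4.36. The noncoding Tbx3os2 (chr5:119685095-119691218), which lies just past the 3′ end of Tbx3, was detected in 60 high and 5 low neurons, with differences of 4.39, 4.27 and 4.16. Tbx3os1, on the other flank, had differences of 2.51, 2.76 and 3.35. Tbx3os1 shares 1.74% of the exon bases of Tbx3 on the opposite strand. Among the 16 transcription factors compared, Tbx3, Etv1, Phox2a and Sox4 were higher (25% against 1.96% of all genes) and Nfatc1 lower (6.25% against 0.313%). Among neurons without detected Tac1 (plates 2 and 3), Nfatc1 differed by -0.27 and 0.175. Phox2a, a regulator of autonomic neurons, had a median of 7.69 in high and 6.06 in low neurons. For Sox4, 54.6% of exon bases are shared with an opposite-strand gene, so its difference (1.30, 2.92 and 3.22) cannot be assigned to it alone.

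Adcyap1, the precursor of the neuropeptide PACAP, showed the largest difference of the peptide genes. It ranged from 0 through a median of 7.08 to 10.52 in high neurons, with 62 of 68 detected, and from 0 through 0.74 to 7.64 in low neurons, with 12 of 53. The differences were 3.94, 5.57 and 5.64, and 6 high neurons lay below 2, where most low neurons lay. Slc17a6, which made the cells red, was detected in 61 of 68 high neurons (89.7%, 95% interval 79.9 to 95.8%) and in 16 of 53 low neurons (30.2%, 18.3 to 44.3%). Its differences were 1.74, 3.35 and 2.67. On plate 1 the shares were 29 of 30 and 11 of 18, on plate 2 11 of 12 and 3 of 14, and on plate 3 21 of 26 and 2 of 21. The middle group had it in 9 of 28 neurons, and the cells that were no neurons in 1 of 55. Most low-Nefm neurons were thus picked as red cells without detected Slc17a6.

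The 250 bases upstream of these genes, and of Pdpn, which was lower, are printed to show the start regions of a peptide gene, of the reporter gene and of a gene of the other direction. They are the RefSeq windows of build GRCm38.p6 (the sequence of mm10), 5′ to 3′ on the strand of the gene, and 60 of 97 genes with values here have such a window. Adcyap1 is chr17:93198767-93199016 on the plus strand, Slc17a6 chr7:51621580-51621829 on the plus strand and Pdpn chr4:143299565-143299814 on the minus strand. No annotated GENCODE M21 exon lies in them. Capitals mark matches, on either strand, to TGACGTCA (the cAMP response element), TATAAA (the box of many core promoters), GGGCGG (the letters bound by Sp1) or CCAAT (the letters bound by NF-Y).
Adcyap1: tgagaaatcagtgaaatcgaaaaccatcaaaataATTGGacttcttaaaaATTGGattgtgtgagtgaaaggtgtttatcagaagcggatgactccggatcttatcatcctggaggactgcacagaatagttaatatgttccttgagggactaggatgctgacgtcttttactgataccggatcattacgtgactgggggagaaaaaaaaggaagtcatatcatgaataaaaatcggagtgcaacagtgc
Slc17a6: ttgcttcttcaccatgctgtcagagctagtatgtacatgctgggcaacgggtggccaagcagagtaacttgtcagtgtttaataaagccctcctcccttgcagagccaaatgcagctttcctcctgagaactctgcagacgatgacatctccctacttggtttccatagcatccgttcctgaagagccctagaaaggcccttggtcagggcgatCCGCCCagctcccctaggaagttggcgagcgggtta
Pdpn: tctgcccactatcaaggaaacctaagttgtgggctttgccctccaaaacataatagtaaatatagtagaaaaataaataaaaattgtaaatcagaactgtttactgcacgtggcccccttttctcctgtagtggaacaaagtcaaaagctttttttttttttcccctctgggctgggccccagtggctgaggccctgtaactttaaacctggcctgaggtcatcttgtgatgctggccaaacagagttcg
Adcyap1 holds 2 matches to CCAAT on its opposite strand, which start 216 and 200 bases upstream, and Slc17a6 holds 1 match to GGGCGG on its opposite strand, 36 bases upstream. Pdpn holds none of the 4 motifs. Of 32851 windows of this length in the table, 33.8% hold the NF-Y letters, 32.7% the Sp1 letters, 12.4% the core promoter box and 1.55% the cAMP response element, and the motifs do not overlap one another here. A match is a run of letters, not a shown binding site.

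**Figure D3:**
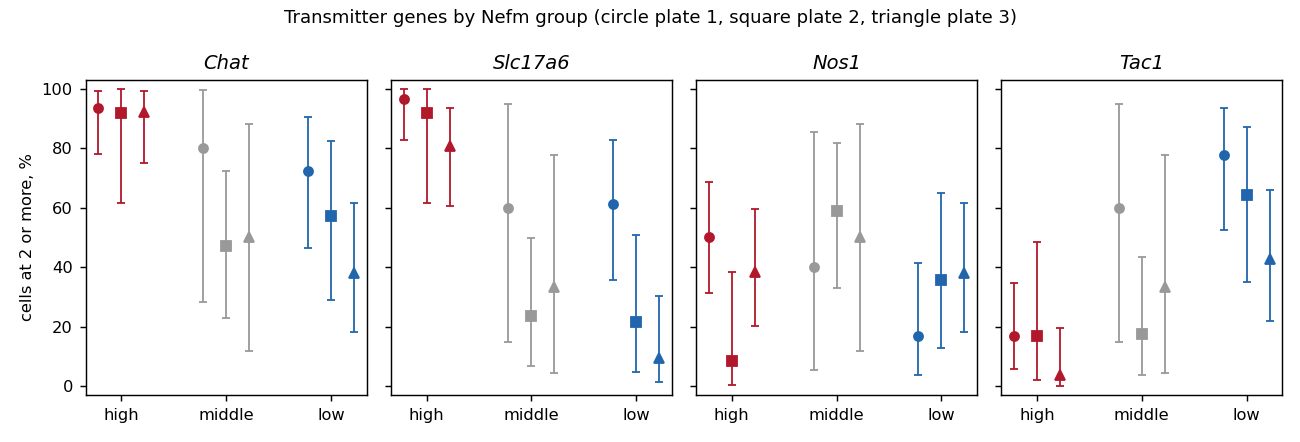
Share of high, middle and low neurons in which Chat, Slc17a6, Nos1 and Tac1 were detected (at 2 or more), per plate, with exact Clopper-Pearson 95% intervals over cells. Slc17a6 and Tac1 run in opposite directions from high to low on each plate, and Nos1 has no common order.

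The groups also differed in transmitter classes. Chat was detected in 63 of 68 high neurons (92.6%, 83.7 to 97.6%) and 29 of 53 low neurons (54.7%, 40.4 to 68.4%), and 1 of 55 cells that were no neurons. Its mean differed by 0.41, 1.69 and 1.91, so it was not called, and neither were the other 3 cholinergic genes compared, among them Slc18a3, the vesicular acetylcholine transporter (0.31, 2.30 and 3.85). The shares over all genes (1.96% higher and 0.313% lower) would give less than 1 call in this list of 4. Its median difference was 1.47, against 0.20 over all genes, and 3 of the 4 lay above 0 on every plate, against 31% of all genes. Tac1 ran the other way, with 8 of 68 high neurons (11.8%, 5.22 to 21.9%) and 32 of 53 low neurons (60.4%, 46.0 to 73.5%). Nos1 was detected in 26 high and 16 low neurons, and its differences of 1.09, -1.64 and -0.75 had no common sign. In high neurons it came almost always with Chat: 24 had both, 39 Chat only, 2 Nos1 only and 3 neither. Of the low neurons 27 had Chat only, 14 Nos1 only, 10 neither and 2 both. Nos1 had a mean of 3.05 in the 24 high neurons with both and of 6.26 in the 14 low neurons with Nos1 only. The 2 low neurons with both had 2.52 and 4.57, near the high neurons of that class.

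The low-Nefm group held several transmitter classes, and some of the called genes differed between them. Means by class pool the plates, although plates 1, 2 and 3 gave 11, 8 and 8 low neurons with Chat only and 1, 5 and 8 with Nos1 only. Etv1, a transcription factor of nitrergic neurons, had a median of 5.75 in high neurons and 0.38 in low neurons, with differences of 4.10, 3.24 and 2.42. By the ratio of mean RPKM its difference was 1.36 as a mean over plates, against 3.25. Its mean was 0.60 ± 1.14 (SD) in the 27 low neurons with Chat only and 5.44 ± 1.86 in the 14 with Nos1 only, against 5.40 in the 39 high neurons with Chat only. Ret, the receptor of GDNF, followed this order, with 2.07 and 5.36 in these low classes and 5.76 in the high neurons with Chat only. Cartpt, the precursor of CART peptides, had 4.22, 8.47 and 8.47, and its difference over all neurons, 2.93 as a mean over plates, was 0.28 by the ratio of mean RPKM. Ngfr, the p75 neurotrophin receptor, had 1.44, 5.32 and 5.57. For these 4 genes the low neurons with Nos1 only lay at the level of the high neurons, and the low neurons with Chat only lay below. Penk showed the reverse split: its mean was 9.66 in low neurons with Chat only, 3.72 in those with Nos1 only and 11.47 in high neurons with Chat only. Penk was detected in every compared neuron and in 54 of 55 cells that were no neurons, where its median was 3.63; in low neurons with Nos1 only the median was 3.32. Tac1 was found mainly in 1 class, with a mean of 8.18 in low neurons with Chat only and 0.87 in those with Nos1 only.

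**Figure D4:**
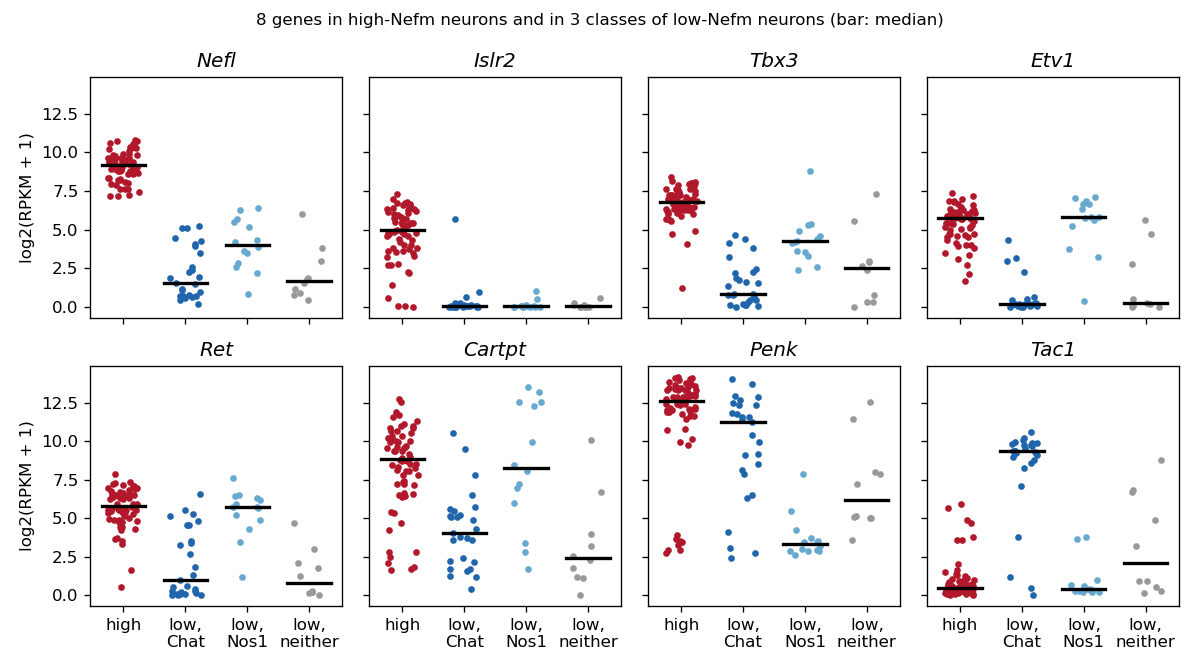
Levels of 8 genes, log2(RPKM + 1) per cell, in the 68 high neurons and in low neurons with Chat only (27), Nos1 only (14) and neither (10); bars are medians, and the 2 low neurons with both are not drawn. Nefl and Islr2 are low in all 3 low classes, Etv1, Ret and Cartpt are low in the Chat class but not in the Nos1 class, and Penk is low in the Nos1 class.

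Other genes were low in each of the 3 larger classes of low neuron. The mean of Islr2 was 0.32 in low neurons with Chat only, 0.12 in those with Nos1 only and 0.10 in those with neither, against 4.87 in high neurons with Chat only and 4.80 in those with both. Adcyap1 had 2.22, 0.63 and 1.21 in the low classes and 6.45 and 7.12 in the high ones. Rerg had 0.52, 1.94 and 1.17 against 6.14 and 5.98. The class with neither is mixed: it includes cells with 4059 and 3883 genes above 0 and mitochondrial shares of 34.9% and 37.8%. Some of its cells carried markers of other cell types or had Tac1 detected. Whether cell quality lowers the means of this class was not tested. In the 2 low neurons with both Chat and Nos1, Islr2 and Rerg were each detected in 1, and the mean of Rerg was 3.33. Compared only among neurons with Chat and without Nos1 (39 high and 27 low), 2.06% of 14937 genes were higher and 0.964% lower on all plates, among them 187 of the 288 and 39 of the 46 genes called over all neurons. There Tbx3 differed by 5.33, 5.64 and 5.21, Islr2 by 4.83, 4.65 and 4.06, and Etv1 by 4.46, 5.65 and 4.57. Chat itself differed by -0.90, -0.39 and -1.53 in that comparison. Among neurons without Tac1 (35 high and 17 low, plates 2 and 3 only), Islr2 differed by 4.51 and 3.97 and Adcyap1 by 6.64 and 5.91. Tbx3 differed less there, by 1.88 and 3.04 (mean 2.46, against 4.19 with all neurons of these plates). The groups of this comparison differ in class, since 12 of the 17 low neurons had Nos1 only and 22 of the 35 high neurons Chat only, and Chat differed by 5.18 and 3.17 and Nos1 by -4.43 and -2.48. In these same neurons Etv1 differed by 0.42 and 1.05 and Ngfr by -0.53 and -0.76, the latter turning sign.

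Among the genes lower in high-Nefm neurons, Tac1 (chr6:7554879-7565834) had the largest mean difference, with -5.48, -4.47 and -3.19. It ranged from 0 through a median of 0.45 to 5.88 in high neurons and from 0 through 6.70 to 10.58 in low neurons, and 27 low neurons lay above every high neuron. Vstm2l (chr2:157914653-157944719) was detected in 9 of 68 high and 40 of 53 low neurons, with medians of 0 and 5.01 and differences of -3.19, -4.60 and -3.06. Plppr5, a lipid phosphatase-related membrane protein, was detected in 6 and 39. Both were present in low neurons with Chat only and in those with Nos1 only: Vstm2l at means of 5.50 and 3.74, Plppr5 at 5.58 and 2.86. Syp, the vesicle protein synaptophysin, had a median of 3.58 in high and 6.41 in low neurons, with differences of -2.10, -3.42 and -1.48. Of 21 genes of vesicle release 2, Syp among them, were lower (9.52% of that list, whose median was 0.19, against 0.313% of all genes), and none was higher. Other named lower genes were Pmp22, a membrane protein best known from myelin, Pdpn, the surface protein podoplanin, and Scx, a transcription factor of tendon. Cadm1, a cell adhesion protein, Syndig1, a protein of glutamate synapses, Synpo, an actin-associated protein, Pde5a, the cyclic GMP phosphodiesterase, and Cnn3, a calponin, were also among them. For Syp 16.8%, for Cnn3 17.7% and for Syndig1 11.8% of exon bases are shared with an opposite-strand gene.

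Some of the lower genes were also found in cells outside the neuron rule. In those 55 cells the median of Pmp22 was 4.54 and that of Cnn3 6.12, while Vstm2l, Scx, Syndig1 and Plppr5 had a median of 0 and Syp of 0.24. A non-neuronal marker list was carried (at least 50% of its members detected) by 18 of 68 high and 23 of 53 low neurons, mostly the smooth muscle list with 13 and 15. The summed level of its 8 genes was 1.03 to 1681 RPKM in high neurons (median 12.7) and 0.566 to 27329 RPKM in low neurons (median 14.9), with Lmod1 at a median of 0 in both. For the glia list the medians were 2.39 and 3.62 RPKM, with Gfap, Erbb3 and Foxd3 at a median of 0 in both groups. Without the neurons that carried such a list (50 high and 30 low remained), Pmp22 differed by a mean over plates of -4.85 against -3.96 with them, Pdpn by -4.27 against -3.43 and Cnn3 by -2.72 against -1.90.

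Genes linked to single neuron classes were called in both directions. Of 21 intrinsic sensory genes 17 were compared. Of these, 4 were higher (23.5%, against 1.96% of all genes) and none lower, with a median difference of 0.47. On every plate 8 of the 17 lay above 0 and 2 below 0, against 31% and 8.01% of all genes. Ntng1, a netrin-related adhesion protein, was detected in 65 high and 3 low neurons, with medians of 4.45 and 0.03, and Klhl1, an actin-binding protein, in 54 and 3. Ano2, a chloride channel, and Il13ra1, a cytokine receptor chain, were the others. Ano2 was seldom detected: it was missed in 46 of 68 high neurons and found in 2 of 53 low neurons. The list's peptide Calcb was detected in 14 high and 4 low neurons, with no common sign (1.39, -0.50 and 0.51). Of 5 excitatory motor genes, Penk and the serotonin receptor Htr4 were higher (40% against 1.96%) and Tac1 lower (20% against 0.313%). The median of this list was -1.05, with 2 members above 0 and 3 below 0 on every plate. Calb2, calretinin, was detected in 15 high and 22 low neurons. Of 9 nitrergic and inhibitory motor genes, Cartpt and Etv1 were higher (22.2%, against 1.96% of all genes), and Gal, the galanin precursor, differed by 0.04, -2.22 and -1.84. The median of this list was -0.19, with 3 members above 0 and 1 below 0 on every plate.

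Of 15 axon injury and regrowth genes, 4 were higher: Adcyap1, Ecel1, Hspb1 and Gap43 (26.7%, against 1.96% of all genes; median of the list 0.40). Hspb1, a small heat shock protein, had a median of 8.55 in high and 6.23 in low neurons, with differences of 1.51, 3.33 and 4.83 (mean 3.22, but 0.85 by the ratio of mean RPKM), and a median of 7.09 in the cells that were no neurons. Gap43, a growth cone protein, had 9.22 and 8.22. Other members did not follow: Gadd45a, a stress response gene, differed by -1.52, -1.56 and -0.79, Atf3, a stress-induced transcription factor, had medians of 5.29 and 5.61, and Sprr1a was detected in 38 of 68 high and 28 of 53 low neurons. None of the 8 immediate early genes compared was called, although Fos was detected in 37 high and 13 low neurons (differences 2.07, 1.54 and 0.59).

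Receptors and channels were called in small numbers. Of 18 transmitter receptors, Chrna5, a nicotinic subunit, and P2rx2, an ATP-gated channel, were higher (11.1% against 1.96% of all genes), and Grm7, a glutamate receptor, and P2ry1, an ADP receptor, lower (11.1% against 0.313%). Grm7 was detected in 6 high and 29 low neurons, 23 of the latter among the 27 with Chat only. P2ry1 was detected in 8 and 26, and 23.1% of its exon bases are shared with an opposite-strand gene. Among neurons without detected Tac1 (plates 2 and 3), P2ry1 differed by 0.32 and -0.47. Kcnip4, Kcnk1 and Kcnb2 were higher among 19 potassium channel genes (15.8% against 1.96%), with Kcnip4, a channel-interacting protein, at medians of 5.16 and 2.74. No gene was called among 8 sodium channel, 12 calcium and HCN channel, 12 calcium-binding, 19 oxidative phosphorylation or 12 sterol synthesis genes, lists in which the shares over all genes would give less than 1 call each. Ret and Ngfr were higher among 6 neurotrophic factor receptors (33.3% against 1.96%), while Gfra2, the neurturin receptor, differed by -3.09, -2.54 and -0.21 and was not called. A further 4 genes outside the lists, chosen after their values were seen, were also called. Glp1r, the GLP-1 receptor, was detected in 53 of 68 high and 3 of 53 low neurons, and Npy1r, a neuropeptide Y receptor, in 53 and 4. Ffar3, a short-chain fatty acid receptor, was detected in 2 of 68 high and 28 of 53 low neurons, 24 of them with Chat only. Dbh, the enzyme that makes noradrenaline, was detected in 48 high and 9 low neurons.

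**Figure D5:**
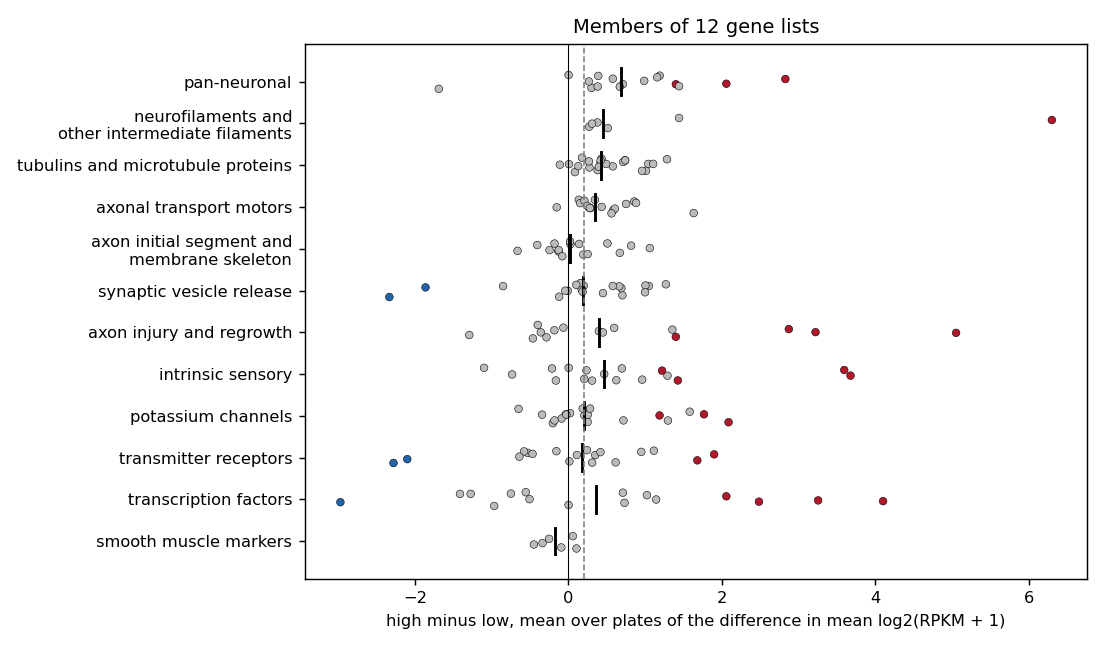
Mean over plates of the difference in mean log2(RPKM + 1), high minus low, for each gene compared in 12 lists; red and blue points differ by at least 1 on all plates upward or downward, black bars are list medians, and the dashed line is the median of all genes compared (0.20). In some lists a few members stand far from the list's median, while the smooth muscle markers lie between -0.45 and 0.11.

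The 28 middle neurons (5, 17 and 6 on plates 1, 2 and 3) did not enter the comparison and give the same genes in other cells. The plate means of these neurons pool different classes, so a mean in between does not show a middle level in single cells. For 11 of the 12 higher genes their mean lay between those of the high and low neurons on all 3 plates, and for 6 of the 12 lower genes. The exception among the higher genes was Rerg, at 5.48 in the middle group of plate 3 against 5.20 in the high group. Counted per cell, middle neurons held a median of 6.5 of the 12 higher and 5 of the 12 lower genes. The medians of 12 and 4 in high neurons and of 3 and 11 in low neurons follow from how these genes were chosen and support nothing. At least 10 higher genes were found in 7 of 28 middle neurons. The middle group contained 10 neurons with Chat only, 10 with Nos1 only, 5 with both and 3 with neither. Within it, Islr2 was detected in 6 of the 10 with Chat only and 1 of the 10 with Nos1 only, and Nefl at means of 6.21 and 6.49.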

How the data were processed

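The deposited table holds 1 value per gene and cell for 49492 genes. The authors deposited log2 values of RPKM; the logarithm's base and the 1 added to each RPKM follow from the values, since 81.9% of 2301514 values above 0 gave whole reads (tolerance 0.001) with GENCODE M21 exon lengths. The total implied by those reads is the depth given. The submitters' processing notes name mm10; not given in the sources used here are the aligner, the counter and whether reads were counted by strand. Reads without molecular identifiers are not independent molecules. Means were compared within each plate (Python 3.11.15, pandas 2.3.3), tested on simulated data. Intervals are Clopper-Pearson, at 95%, and cover counting error only. The members and the 33 gene lists (355 genes) were chosen with earlier results of these data known. Counts and shares of called genes in a list cover the members that were compared. Named genes are the 12 per direction with the largest smallest-plate difference, detected in at least 50% of the higher group on each plate, the 2 list members with the largest mean difference of one sign, and Slc17a6, Chat, Nos1, Nefl, Nefh and the 5 rule genes. The named genes hold no mitochondrial, ribosomal, Rik or Gm gene. Gap43, Ecel1, Htr4, Ano2, Il13ra1, Kcnb2, Chrna5, P2rx2, Sox4, Nfatc1, Tbx3os1, Gal, Calb2, Gfra2, Atf3, Gadd45a, Sprr1a, Calcb, Glp1r, Npy1r, Ffar3, Dbh and Dmkn were named after their values were seen. A lower gene and some list members are not reported here. Alternatives covered the measure, pseudocount, filter, thresholds, scaling, neuron class, depth, other cell types and plates.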

Additional observations from a re-analysis of the deposited data

How the results depend on the processing

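No paired analysis was possible because no number pairs a high with a low cell; plates, which hold both groups, were compared within themselves throughout. The shares called, 1.96% higher and 0.313% lower of 14678 genes, moved with the settings (each share is of the genes that the setting compared). With a pseudocount of 0.1 they were 5.58% and 0.947%, and with 10 they were 0.388% and 0.0545%. Centring on the pan-neuronal list gave 0.525% and 3.62% (the median of all genes moved from 0.20 to -0.59), and centring on frequent genes 0.981% and 0.879% (-0.12). With 1 plate fewer the rule is easier to meet: 3.64% and 0.779% without plate 1, 3.91% higher without plate 2 and 1.02% lower without plate 3. A split at the plate median of Nefm gave 0.710% higher. With no filter on low values the same 288 and 46 genes were called, 0.816% and 0.130% of 35280. The share lower was 0.961% by the ratio of mean RPKM, 0.0883% among genes detected in at least 50% of cells, 0.586% with all 5 rule genes, 0.528% without neurons that carry a non-neuronal list and 0.912% in the middle range of genes detected. It was 0.964% with Chat and without Nos1. Plate 1 alone had enough cells with Slc17a6, and there 13.1% and 4.31% passed, against 10.1% and 2.62% with all compared neurons on that plate. After seeing the data, 3 settings were added: Tac1 below 2 (plates 2 and 3) gave 5.88% and 1.54%, against 3.64% and 0.779% for these plates with all neurons, Chat at 2 or more 0.878% lower, and limits on reads and mitochondrial share 0.539% lower. For the named called genes, the sign was fixed in advance under the filters on low values and with 1 plate fewer. A call requires a difference of at least 1 in one direction on every plate. All 56 named called genes kept their sign in each setting except Tac1 below 2, where 52 did: Tac1, fixed by that selection, was 0.077, Ngfr -0.646, Ffar3 0.090 and Dmkn 0.346. Some genes that kept their sign there were near 0, among them Nfatc1 at -0.047 and P2ry1 at -0.074. With all neurons of plates 2 and 3 these were -2.07 and -1.86. The cause was not tested. Cells of few plates limit the precision, and low transcripts are missed in shallow cells.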
